A study of Mus musculus with 16 samples.

Results

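The genes examined here encode the killing machinery of cytotoxic lymphocytes: the granzymes Gzma, Gzmb, Gzmc, Gzmd, Gzme, Gzmf and Gzmk, the pore-forming protein Prf1, the death ligand Fasl and the granule membrane protein Nkg7. They were matched by symbol in the bulk RNA-seq count table, and all 10 were found among its 53465 genes. Counts came from 16 MC38 tumors of as many mice, grouped as 8 IgG control tumors (numbered 1 to 8), 6 aPD-1 non-responder tumors (9 to 14) and 2 aPD-1 responder tumors (15 and 16).

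Cytotoxic T cells and natural killer (NK) cells store granzymes, a family of serine proteases, in secretory granules together with perforin. On contact with a target cell the granules are released, perforin opens the target membrane, and the granzymes that enter start cell death. Fasl acts by another route, engaging the death receptor Fas on the target. PD-1 is an inhibitory receptor that restrains activated T cells, and aPD-1 antibodies block it.

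All mice were female C57BL/6 animals, 6 to 8 weeks old at injection, and carried tumors of MC38, a mouse colon carcinoma line, under the skin of the right flank after injection of cultured cells. IgG control mice received 200 µg of control antibody and the other mice 200 µg of aPD-1 antibody, on days 16 and 20, and all tumors were taken on day 21. RNA came from 2 sections of 100 microns of the frozen part of each tumor and was made into poly(A), strand-specific libraries. Treatment was assigned at random, but responders were told from non-responders by how far immune cells had infiltrated the same tumors. A responder comparison of genes that T cells express is therefore not independent of how responders were chosen. The randomised comparison is that of all aPD-1 tumors with IgG controls. In bulk RNA, fewer cytotoxic cells and less RNA per cell cannot be told apart.

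Total counts per tumor lay between 26603449 and 39948866, and levels are given as CPM, counts scaled to a common library total with TMM factors. IgG control 1 had the lowest total and stood apart from the other libraries, and IgG control 3 gave 20.4% of its counts to a single gene, CT010467.1. Both responders also carried transcripts that were scarce elsewhere. The summed level of 5 B cell markers was 908 CPM in responder 15 and 242 CPM in responder 16, against at most 6.03 CPM in any other tumor, and that of 5 lymph node stroma and venule markers was 535 and 145 CPM, against at most 4.48 CPM. The intestinal epithelial genes Cdx2 and Vil1 averaged 0 and 0.100 CPM in responders and 0 and 0.163 CPM in non-responders, so the label of a colon carcinoma was not reflected in them. Krt8, a keratin of simple epithelia, was at 31.9 and 13.1 CPM in responders 15 and 16 but at most 1.37 CPM among the other groups. The summed level of 7 epithelial markers, these 3 genes among them, was 116 and 50.5 CPM, against at most 12.2 CPM in any other tumor. The part of these signals in the results on killing genes was not tested.

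Of the granzymes, 5 members lie close together on the minus strand of chromosome 14 (GRCm38, GENCODE M21), with Gzme at chr14:56117626-56120625, Gzmd at chr14:56129556-56132608, Gzmf at chr14:56205263-56211417, Gzmc at chr14:56231441-56234656 and Gzmb at chr14:56258838-56262260. The non-member Gzmg lies among them at chr14:56156582-56159579. Gzma (chr13:113093825-113100981) and Gzmk (chr13:113171608-113225908) are neighbours on chromosome 13. Prf1 lies at chr10:61297833-61304680, Fasl at chr1:161780689-161788495 and Nkg7 at chr7:43437073-43438249, and all 10 are protein-coding genes. The chromosome 14 genes are close copies: the longest transcripts of Gzmd and Gzme were 93.4% identical, those of Gzmd and Gzmf 85.8%, those of Gzmc and Gzmf 73.2% and those of Gzmb and Gzmc 75%. No stretch of 150 bases, the length of a read, was shared between any of these transcripts and another gene, and all 10 members had whole-number counts in all 16 tumors, within 0.001. Their reads had therefore not been split with other genes.

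The likeness reaches into the promoters, which are shown because the levels of these genes moved together across tumors. Each sequence is the stretch of 150 bases before the RefSeq transcript start (GRCm38.p6, minus strand, 5′ to 3′), with Gzmc at chr14:56234658-56234807, Gzmd at chr14:56132594-56132743, Gzme at chr14:56120626-56120775, Gzmf at chr14:56211408-56211557, Gzmg at chr14:56159580-56159729, Gzmb at chr14:56262335-56262484 and Gzma at chr13:113100982-113101131. Capitals mark matches to TGANNTCA, which reads the same on both strands, or to AACCACA on either strand, where the other strand reads TGTGGTT.
Gzmc: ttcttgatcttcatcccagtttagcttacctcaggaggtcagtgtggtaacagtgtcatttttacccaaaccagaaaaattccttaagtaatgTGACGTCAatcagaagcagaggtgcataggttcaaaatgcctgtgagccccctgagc
Gzmd: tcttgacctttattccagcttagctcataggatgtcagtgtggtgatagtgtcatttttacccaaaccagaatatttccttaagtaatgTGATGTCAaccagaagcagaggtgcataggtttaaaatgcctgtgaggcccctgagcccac
Gzme: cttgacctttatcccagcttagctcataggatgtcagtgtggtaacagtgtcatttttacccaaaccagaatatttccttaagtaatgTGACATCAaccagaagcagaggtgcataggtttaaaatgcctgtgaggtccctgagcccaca
Gzmf: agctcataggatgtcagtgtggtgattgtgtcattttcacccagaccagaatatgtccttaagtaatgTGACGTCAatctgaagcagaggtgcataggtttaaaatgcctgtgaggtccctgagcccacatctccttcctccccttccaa
Gzmg: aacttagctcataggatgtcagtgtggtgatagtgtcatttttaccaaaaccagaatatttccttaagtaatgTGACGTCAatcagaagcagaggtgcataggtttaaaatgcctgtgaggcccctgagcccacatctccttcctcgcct
Gzmb: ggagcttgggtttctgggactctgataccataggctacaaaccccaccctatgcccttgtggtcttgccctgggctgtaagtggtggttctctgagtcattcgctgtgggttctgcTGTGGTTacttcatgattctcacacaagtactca
Gzma: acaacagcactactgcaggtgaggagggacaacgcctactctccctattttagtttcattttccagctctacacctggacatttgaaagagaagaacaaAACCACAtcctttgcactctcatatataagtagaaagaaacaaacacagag

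Over their aligned stretches, the promoter of Gzmd was 97% identical to that of Gzmg, 96% to that of Gzme, 93.8% to that of Gzmf and 87.9% to that of Gzmc. A TGANNTCA match stood in all of these 5, as TGACGTCA in Gzmc, Gzmf and Gzmg, TGATGTCA in Gzmd and TGACATCA in Gzme. Gzmb, Gzma, Gzmk, Prf1, Fasl and Nkg7 had none. The RefSeq start of Gzmb lies upstream of its GENCODE M21 start (chr14:56262260), and the bases between these starts were not examined. The stretch of Gzmk (chr13:113180966-113181115) lies inside its GENCODE M21 gene (chr13:113171608-113225908), and the bases before the outer start were not examined. The stretch of Nkg7 (chr7:43436988-43437137) runs past its GENCODE M21 start (chr7:43437073). Among 32817 promoter stretches of the same length, 8.37% held TGANNTCA, 1.36% held TGACGTCA, which is a form of it, and 2.61% held AACCACA on either strand, as Gzmb and Gzma do. These motifs were picked after the sequences had been read, and a match is a description of letters only.

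Per kilobase of exon, the chromosome 14 copies supplied most granzyme transcripts of every tumor. Gzmc, Gzmd, Gzme, Gzmf and Gzmg, which belong to the rodent expansion of the family, together made up between 82.9% (responder 15) and 93.9% (IgG control 4) of the summed level of all 10 granzymes in the table. Gzmb, the granzyme that cleaves after aspartate and activates caspases, made up between 5.68% and 13.7% of it. Gzma, a granzyme of tryptase type, made up 0.0808% in IgG control 1 and 4.57% in responder 16, and Gzmk, another tryptase, 0.571% at most.

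The summed granzyme level was lowest in IgG control 2, at 27.4 CPM per kilobase, and highest in responder 16, at 436 CPM per kilobase. The median was 109.5 in IgG controls and 196 in non-responders on this scale, and responder 15, at 104, lay below both. The make-up differed as well. The Gzmb level per kilobase was 0.476 and 0.524 times that of Gzmc in responders 15 and 16, 0.224 to 0.358 times in non-responders and 0.186 to 0.303 times in IgG controls. Gzmf stood at 1.31 times the level of Gzmc in IgG control 1 and at 0.204 times in IgG control 6, whereas Gzmd stayed between 2.01 and 3.08 times the level of Gzme in all 16 tumors.

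**Figure D1:**
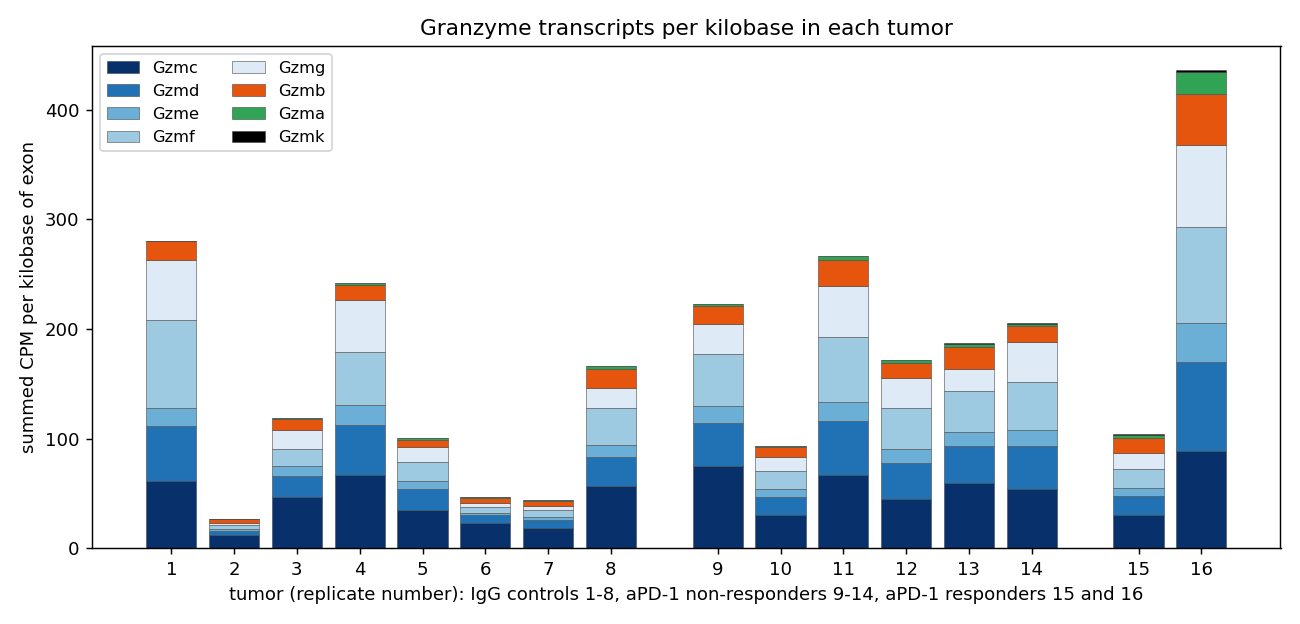
Bars show the summed level of granzyme transcripts in each tumor, in CPM per kilobase of exon on a linear axis from 0, split by gene. The bar of responder 16 reached 436 and that of responder 15 reached 104, within the range of the IgG controls (27.4 to 280.4).

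Ranked by median level per kilobase in IgG controls, Gzmc led at 41.2 CPM per kilobase, followed by Gzmd at 18.6, Gzmf at 17.0, Gzme at 8.21 and Gzmb at 8.12. Nkg7 followed at 2.98, Prf1 at 2.39, Gzma at 1.02, Fasl at 0.288 and Gzmk at 0.0295 CPM per kilobase. In non-responders Gzmf, at 40.7, stood above Gzmd, at 36.8, and Gzmb, at 16.0, above Gzme, at 13.7, and the other ranks were the same. In IgG controls the ranges of all neighbours in this order overlapped. In non-responders the ranges overlapped from Gzmc down to Gzma, whereas Fasl lay below Gzma in all tumors and Gzmk below Fasl.

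Between responders and non-responders, 3 of the 10 genes were called higher, Gzma, Gzmk and Nkg7, in edgeR's quasi-likelihood test, where a call needed an adjusted p under 0.05 together with a change of more than 1 on the log2 scale. Of all 18251 genes tested, 12.5% were called higher by the same rule. None of the 5 chromosome 14 members was called, and none of the 10 was called lower, where 0.663% of all genes were. The members' fold changes ran from 0.11 to 3.24 on the log2 scale with a median of 0.80, against a median of 0.02 over all genes. Gzmk passed the filter on low counts only through the responders, in which it was high, so its call had to go this way and it lends no support to the count. Of the other 9 members, Gzma and Nkg7 were called. Without responder 16, 0 of the 10 were called, where 12.3% of all genes in that fit were called higher. Without responder 15, Gzma, Gzmk and Nkg7 were called, where 4.67% were. In a fit with 1 responder, that tumor was assumed to vary like the tumors of the other groups.

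Gzmb lay at 4.62, 11.7 and 24.8 CPM (lowest, median and highest) in IgG controls and at 12.2, 22.9 and 34.3 CPM in non-responders. Responder 15 was at 20.6 CPM and responder 16 at 66.6 CPM. Responder 16 was thus above all other tumors, while 6 of the 14 other tumors were above responder 15. Responders over non-responders, the log2 fold change was 0.89 ± 0.56 (SE, n = 2 and 6) with an adjusted p of 0.312 in edgeR's test.

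Gzmc, which had the highest median of the family in IgG controls and in non-responders, lay at 10.4, 36.8 and 59.8 CPM in IgG controls and at 26.7, 50.6 and 67.0 CPM in non-responders. Responders were at 26.9 and 79.2 CPM, the lower of them under 10 of the 14 other tumors. Its log2 fold change was 0.11 ± 0.55, and edgeR's adjusted p was 0.925.

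Gzmd lay at 4.05, 17.9 and 48.8 CPM in IgG controls, at 16.3, 35.4 and 47.3 CPM in non-responders and at 16.9 and 77.9 CPM in responders. Gzme lay at 1.86, 7.52 and 16.4 CPM in IgG controls, at 6.44, 12.5 and 16.3 CPM in non-responders and at 6.44 and 33.2 CPM in responders. Gzmf lay at 2.95, 15.6 and 73.3 CPM in IgG controls, at 15.5, 37.4 and 54.7 CPM in non-responders and at 16.0 and 80.1 CPM in responders. In all of these 3 genes responder 16 was the highest tumor of the series and responder 15 stood near the lowest non-responder, number 10. IgG control 1 was close to responder 16 only in Gzmf, at 73.3 CPM, and was among the high controls in the others. Log2 fold changes over non-responders were 0.48 ± 0.75 for Gzmd, 0.71 ± 0.69 for Gzme and 0.38 ± 0.92 for Gzmf, with adjusted p of 0.733, 0.544 and 0.839 in edgeR's test.

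Gzma lay at 0.228, 1.03 and 2.6 CPM in IgG controls, at 0.851, 2.13 and 3.46 CPM in non-responders, at 2.36 CPM in responder 15 and at 20.1 CPM in responder 16. Responder 15 was inside the non-responder range and only responder 16 stood outside it. The log2 fold change against non-responders was 2.36 ± 0.64 with an adjusted p of 0.0150 in edgeR's test. Without responder 16 it was 0.07, with an adjusted p of 0.972.

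Gzmk, a granzyme often used to mark memory-like effector T cells, was the scarcest member. It had 0 to 17 counts in IgG controls, 4 to 8 counts in non-responders, 28 counts (0.828 CPM) in responder 15 and 93 counts (2.62 CPM) in responder 16. IgG controls 3 and 7 had 0 counts, which allows up to 0.112 and 0.0844 CPM. Both responders were above all 14 other tumors, of which IgG control 8 was the highest at 0.471 CPM. Only IgG control 8 among these 14 reached the level that the filter on low counts asks of at least 2 tumors, so Gzmk was tested only because it was high in responders. The log2 fold change against non-responders was 3.24 ± 0.84 with an adjusted p of 0.0107 in edgeR's test, 3.16 with an adjusted p of 0.0137 with no such filter, and 2.14 with an adjusted p of 0.239 without responder 16.

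Prf1, the pore-forming protein, lay at 1.78, 6.18 and 11.8 CPM in IgG controls, at 5.62, 9.12 and 15.5 CPM in non-responders and at 9.64 and 21.5 CPM in responders. Responder 15 was inside both ranges. The log2 fold change against non-responders was 0.66 ± 0.58, with an adjusted p of 0.493 in edgeR's test.

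Fasl lay at 0.437, 0.558 and 1.36 CPM in IgG controls and at 0.668, 1.07 and 1.34 CPM in non-responders. Responder 15, at 1.45 CPM, was just above all 14 other tumors and responder 16 was at 3.09 CPM. The log2 fold change against non-responders was 1.14 ± 0.41 and missed the threshold with an adjusted p of 0.0593 in edgeR's test, while DESeq2 gave an adjusted p of 0.0464.

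Nkg7, which lines the granule membrane and takes part in granule release, lay at 1.79, 2.72 and 6.84 CPM in IgG controls and at 3.10, 5.23 and 8.70 CPM in non-responders. Responders were at 13.6 and 26.2 CPM, both above all other tumors. The log2 fold change against non-responders was 1.89 ± 0.44 with an adjusted p of 0.00507 in edgeR's test. Without responder 16 it was 1.3 with an adjusted p of 0.136. Gzmk, Fasl and Nkg7 were the 3 members with both responders above all non-responders, which 21.5% of all tested genes showed. Gzmk was tested only because it was high in responders, so it lends no support to this count, which leaves Fasl and Nkg7.

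**Figure D2:**
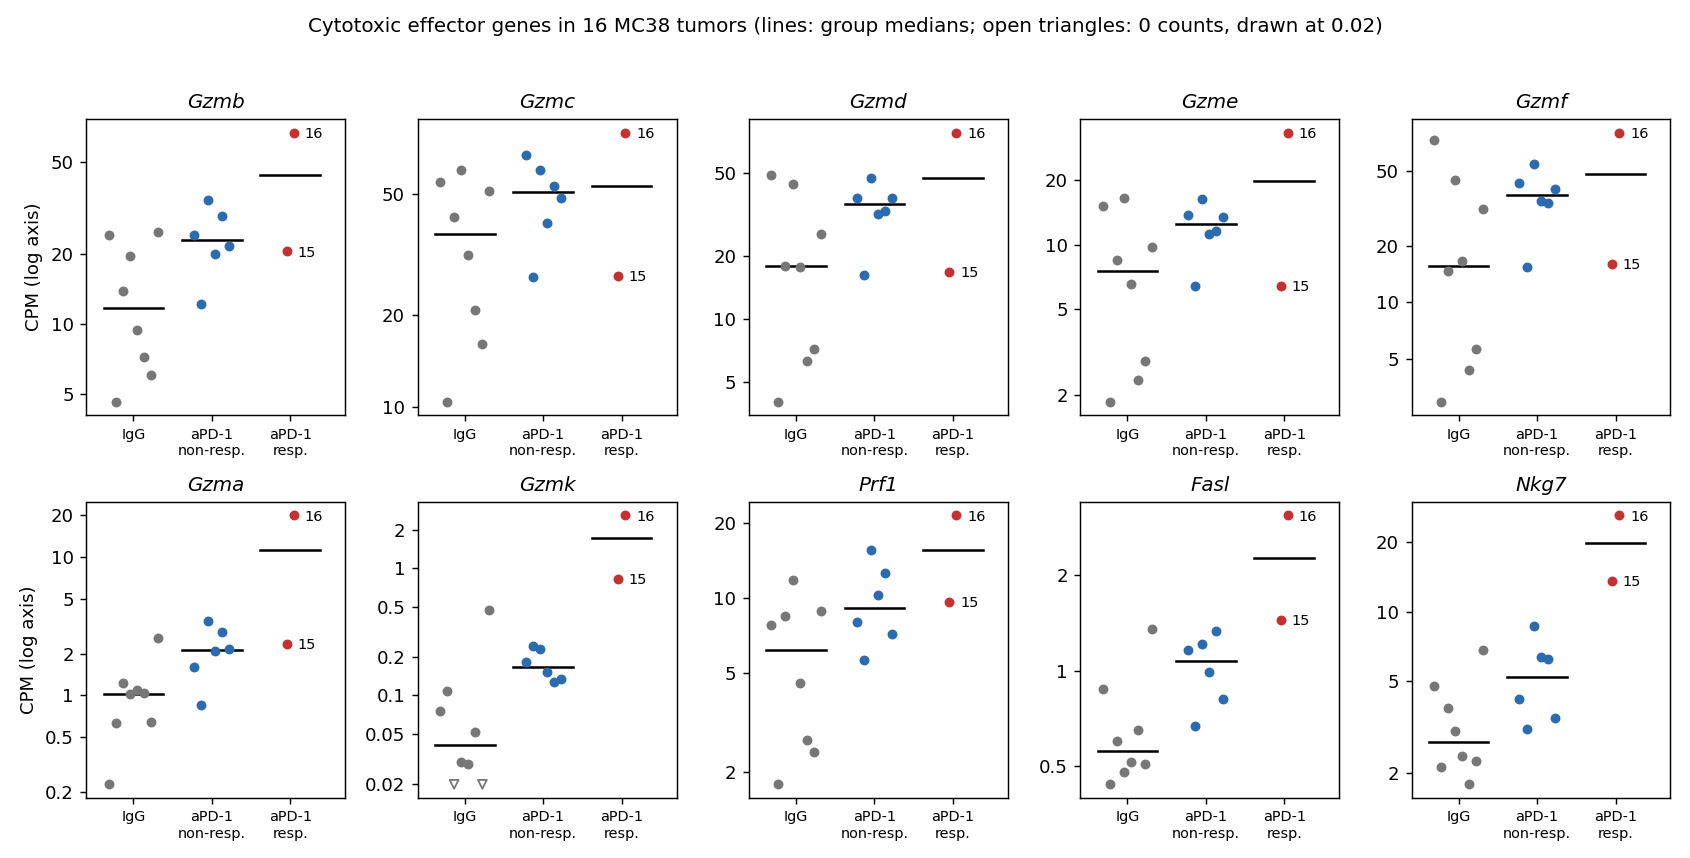
Points show the level of each gene in each tumor in CPM on a log axis, with group medians as lines and responders numbered. Responder 16 is the highest tumor in all 10 panels, and responder 15 lies outside the other tumors only for Gzmk, Fasl and Nkg7.

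Against IgG controls, 5 of the 10 genes were called higher in responders, Gzmb, Gzma, Gzmk, Fasl and Nkg7, where 14.3% of all tested genes were called higher. Gzmk again passed the filter only through the responders, and its adjusted p with no filter was 0.00097 in edgeR's test. This comparison uses the same responders and is not a second line of evidence. Gzmk, Fasl and Nkg7 again had both responders above all controls, as did 19.3% of tested genes, and Gzmk again lends no support to this count. The log2 fold changes were 4.08 ± 0.79 for Gzmk, 3.39 ± 0.59 for Gzma, 2.56 ± 0.40 for Nkg7, 1.74 ± 0.38 for Fasl and 1.67 ± 0.52 for Gzmb (SE, n = 2 and 8). Adjusted p in edgeR's test was 0.00102, 0.000427, 0.000163, 0.00266 and 0.0264 in the same order. The call of Gzmb was lost without a filter on low counts (adjusted p of 0.0698 in edgeR's test) and in a fit of these 2 groups alone (0.0615). Prf1 had a log2 fold change of 1.37 ± 0.53 (adjusted p of 0.0768), and Gzmc, Gzmd, Gzme and Gzmf had 0.57, 1.14, 1.33 and 0.99, none of them called. None was called lower, as 0.641% of all genes were. Without responder 16, Nkg7 alone was called, with a log2 fold change of 1.96 and an adjusted p of 0.0136 in edgeR's test, where 14% of all genes in that fit were called higher. Without responder 15, 5 members were called, where 6.27% of all genes were.

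Levels of these genes differed between the responders. Those in responder 16 were 8.48 times those in responder 15 for Gzma, 5.16 times for Gzme, 5.01 times for Gzmf, 4.61 times for Gzmd, 3.24 times for Gzmb, 3.16 times for Gzmk and 2.94 times for Gzmc. Prf1 stood at 2.23 times, Fasl at 2.14 times and Nkg7 at 1.92 times. The ratio was at least 2 for 9 of the 10 members, and for 4.16% of 18059 tested genes with counts in both tumors, whose median ratio was 0.982. A ratio of 0.5 or less was found for 10.58% of these genes and for none of the members. Of the T cell genes, Cd8a was at 59.7 and 59.2 CPM in responders 15 and 16, and Cd3e at 14.1 and 14.3 CPM, and the ratio over all 8 CD8 and T cell markers ran from 0.706 for Cd2 to 1.11 for Cd8b1. NK cell markers, 5 in all, summed to 7.57 and 14.8 CPM, higher in responder 16, and the B cell markers were higher in responder 15. With 1 tumor of each kind there is no test of these differences, and the part of NK cells in them was not tested.

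**Figure D3:**
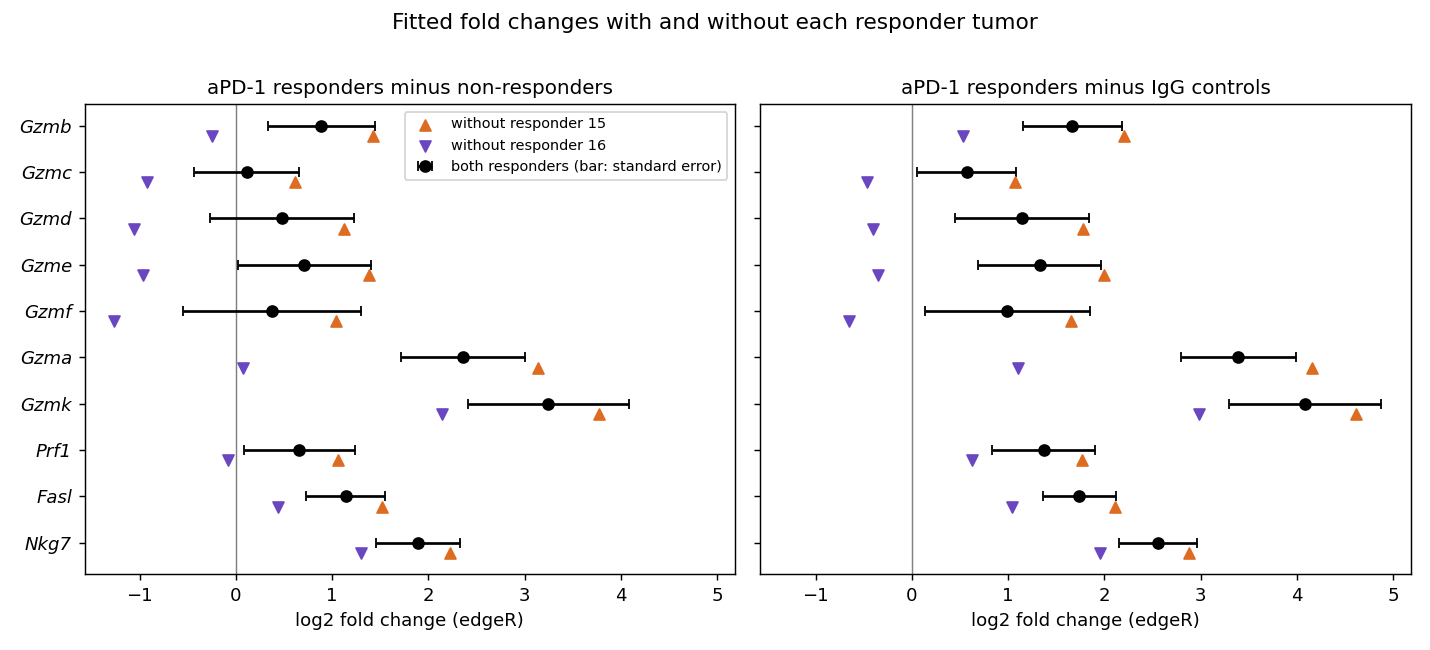
Black points show log2 fold changes of responders over non-responders (left) and over IgG controls (right), with bars for the standard error, and triangles the same without responder 15 or 16. Without responder 16, Gzmb, Gzmc, Gzmd, Gzme, Gzmf and Prf1 were below 0 on the left, and Gzmc, Gzmd, Gzme and Gzmf on the right.

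Killing genes were also set against the CD8 transcripts of the same tumor. Responders were chosen for their immune infiltrate, so a high Cd8a level, and with it a low ratio, follows from the choice, and the ratios are given as a description with no test. The ratio of Gzmb to Cd8a counts was 0.345 in responder 15 and 1.13 in responder 16. It lay at 2.33, 3.51 and 5.34 in non-responders and at 1.22, 2.85 and 6.50 in IgG controls, so both responders were below all other tumors. The difference in mean log2 ratio, responders minus non-responders, was -2.49. It was -2.95 with Cd3e and -3.0 with Cd8b1 in place of Cd8a. Against IgG controls it was -2.16. This ratio is not particular to Gzmb: of 18250 tested genes, 85.9% had a lower ratio to Cd8a in each responder than in any non-responder, and 84.3% than in any IgG control. Gzmc, Gzmd, Gzme, Gzmf, Prf1, Fasl and Nkg7 also had lower ratios in each responder than in any non-responder. The ratios of Gzma (0.0396 and 0.339 in responders, 0.196 to 0.533 in non-responders) and Gzmk (0.0139 and 0.0442 in responders, 0.0158 to 0.0559 in non-responders) overlapped.

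**Figure D4:**
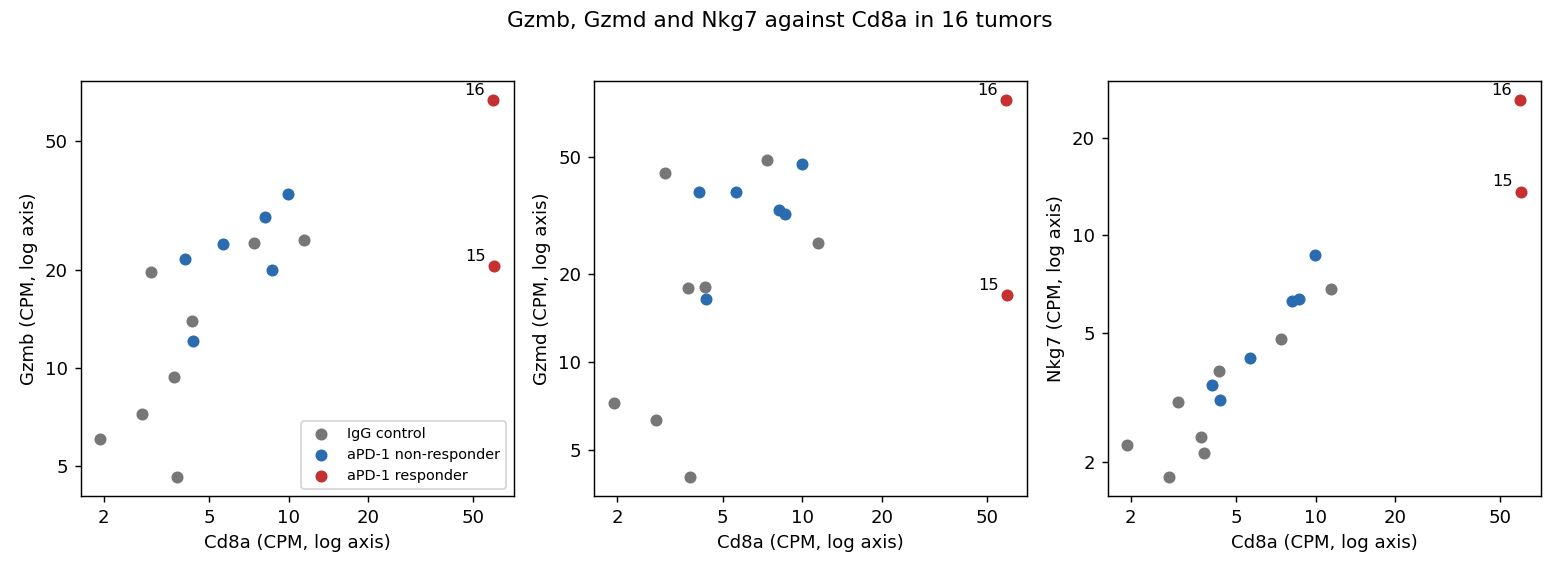
Points show Gzmb, Gzmd and Nkg7 against Cd8a in each tumor, in CPM on log axes. Both responders sit near 59 CPM of Cd8a, at 20.6 and 66.6 CPM of Gzmb, 16.9 and 77.9 CPM of Gzmd and 13.6 and 26.2 CPM of Nkg7.

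Across the 14 tumors that were not responders, the levels of many members moved together. These correlations describe log2 CPM over tumors that share a treatment split and scaling, and no p is given for them. Gzmd, Gzme and Gzmf, whose promoters are printed above, had Pearson r between 0.98 and 0.99 with each other, and Gzmc between 0.94 and 0.96 with them. Gzmb, whose printed stretch did not align with theirs, had r between 0.94 and 0.95 with Gzmc, Gzmd, Gzme and Gzmf. Prf1 had r between 0.90 and 0.95 with all chromosome 14 members. Nkg7 had r of 0.92 with Cd8a, 0.87 with Gzmb and 0.72 to 0.76 with Gzmc, Gzmd, Gzme and Gzmf, and Fasl had r of 0.86 with Cd8a, 0.81 with Gzmb and 0.59 to 0.67 with the others. The r of Gzmd with Cd8a was 0.61. Gzma had r of 0.32 to 0.53 with the chromosome 14 members and 0.83 with Ncr1, a receptor of NK cells. Without IgG control 1, where Gzma had 6 counts, the former rose to between 0.74 and 0.89, and the r with Ncr1 was 0.81. Gzmk, at 17 counts or fewer in these tumors, had r of 0.31 to 0.50 with the chromosome 14 members, and counts this low limit any correlation.

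**Figure D5:**
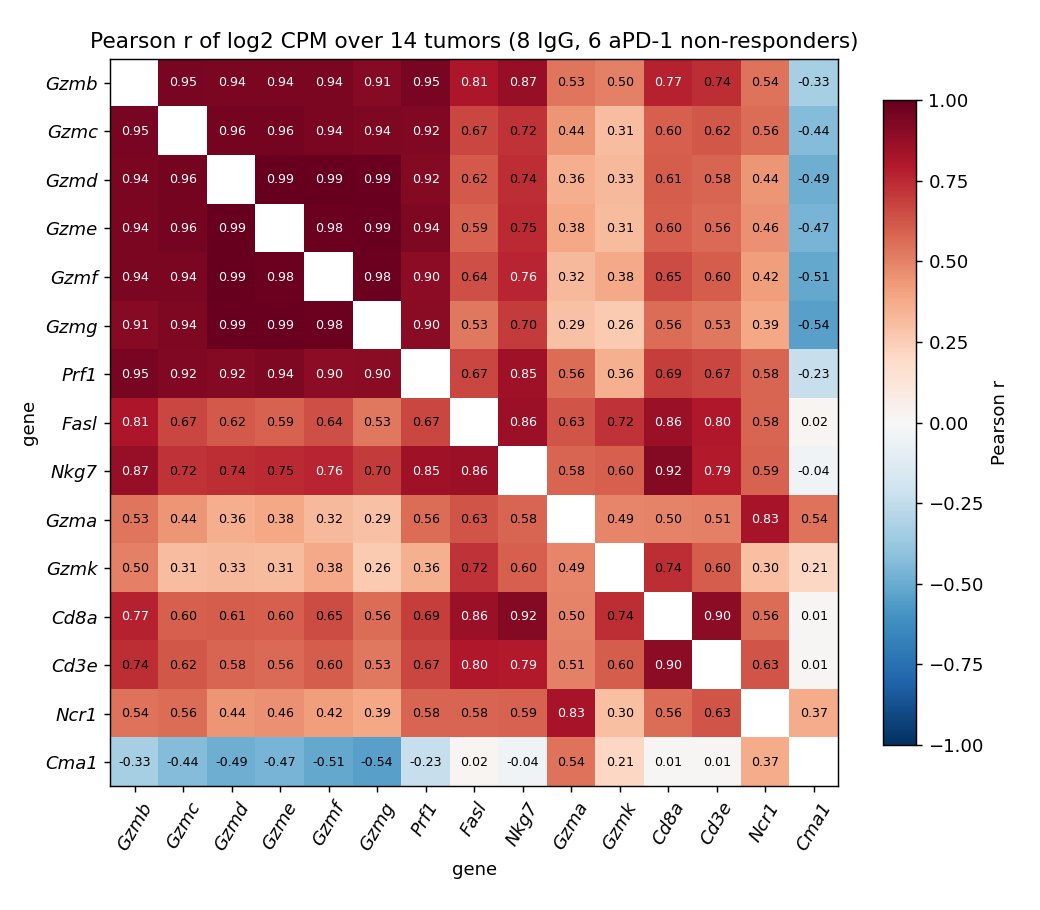
Each cell gives Pearson r of log2 CPM between a pair of genes over 14 tumors (8 IgG controls and 6 aPD-1 non-responders), colored from -1 (blue) to 1 (red). Gzmb to Gzmg and Prf1 form a block with r of at least 0.90 after rounding, and Cma1, a mast cell protease on chromosome 14, had r of -0.54 to -0.33 with its granzymes.

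The gene most like each member over these 14 tumors was sought among 13612 non-member genes with a mean of at least 1 CPM. The highest r is picked from many candidates, and the height it would reach for unrelated genes was not tested. Gzmg was the nearest for Gzmc (r = 0.94), Gzmd (0.99), Gzme (0.99) and Gzmf (0.98). The chemokine gene Cxcl11 was nearest for Gzmb (0.94) and Cd3g, a chain of the T cell receptor complex, for Nkg7 (0.95). The costimulatory receptor gene Cd28 was nearest for Gzma (0.89), Slamf7 for Prf1 (0.92), Il18bp, which encodes a binding protein of interleukin 18, for Fasl (0.94) and Fzd1 for Gzmk (0.83). The next genes were Rtl5 (0.93) and Ifi211 (0.92) for Gzmb, Vav1 (0.90) and Ccl5 (0.89) for Gzmc, Cxcl11 (0.91) and Ccl5 (0.90) for Gzmd, and Ccl5 (0.92) and Cxcl11 (0.90) for Gzme. They were H2-Q6 (0.90) and Cd300lf (0.90) for Gzmf, Cd96 (0.89) and Ctss (0.87) for Gzma, and Trbc2 (0.82) and Ms4a4b (0.81) for Gzmk. Without IgG control 1, the r of Gzma was 0.84 with Cd28, 0.80 with Cd96 and 0.77 with Ctss. For the other members they were Tap1 (0.91) and Gzmg (0.90) for Prf1, Abcc3 (0.92) and Igtp (0.91) for Fasl, and Il18bp (0.93) and Cd74 (0.93) for Nkg7.

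Between non-responders and IgG controls, none of the 10 members was called by edgeR's quasi-likelihood test or by DESeq2, and the share of all genes called higher was 0.0% in edgeR's test. All 10 had fold changes above 0 on the log2 scale, from 0.46 for Gzmc to 1.03 for Gzma, with a median of 0.67, and all 10 had an adjusted p of 0.987 in edgeR's test. At an unadjusted p below 0.05 only Gzma passed in edgeR's test (p = 0.0459, from the model fitted across all genes, not from an exact test), where 2.56% of all genes passed as higher. Without IgG control 1, adjusted p of the members ran from 0.257 (Nkg7) to 0.549 (Gzmk) in edgeR's test, and 0 were called. With all 16 tumors the groups overlapped for every member. The spread between tumors was wide, with a coefficient of variation of Gzmf of 101% in IgG controls and 35.0% in non-responders, and of Gzmb of 59.7% and 32.4%.

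The randomised comparison, all 8 aPD-1 tumors with 8 IgG controls, called 0 of the 9 members tested in edgeR's test and in DESeq2, and 0.0% of all 15775 genes tested were called higher by edgeR. Gzmk was below the filter on low counts there. The log2 fold changes were 2.07 ± 0.61 for Gzma, 1.42 ± 0.43 for Nkg7, 1.07 ± 0.39 for Gzmb, 0.99 ± 0.32 for Fasl and 0.91 ± 0.38 for Prf1 (SE, n = 8 and 8), with adjusted p between 0.226 and 0.367 in edgeR's test. These 5 passed an unadjusted p below 0.05, as did 9.18% of all genes as higher. Gzmc, Gzmd, Gzme and Gzmf had log2 fold changes between 0.49 and 0.84. Without responder 16, the log2 fold change of Gzma was 1.06 and that of Nkg7 0.96.

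Of 10 genes listed for granule loading and release, 6 were called higher in responders than in non-responders, where 12.5% of all genes were. The same 6 were called without responder 16, where 12.3% of all genes were. Rab27a, a small GTPase that docks granules, was at 18.9 and 18.7 CPM in responders 15 and 16 and at 3.42 to 6.53 CPM in non-responders, with a log2 fold change of 1.86 ± 0.26. Unc13d, which primes docked granules for fusion, was at 27.3 and 16.7 CPM against 5.26 to 7.42 CPM, with 1.74 ± 0.29. Stxbp2, a partner of the fusion machinery, and Lyst, which takes part in lysosome trafficking, had log2 fold changes of 1.20 ± 0.15 and 1.37 ± 0.21. Ctsw, a cathepsin, and Cst7, an inhibitor of cathepsins, had 2.02 ± 0.30 and 1.96 ± 0.38. Adjusted p of these 6 genes was at most 0.00141 in edgeR's test. Responder 16 stood at 0.612 to 1.45 times responder 15 in them. Srgn, the proteoglycan that holds granzymes in the granule, had a log2 fold change of 0.63, below the size set for a call, and Ctsc, which activates granzymes, Lamp1 and Stx11 had 0.38, 0.15 and -0.02. Without responder 15, 4 of the 10 were called, where 4.67% of all genes were, and Unc13d (1.27) and Stxbp2 (0.98) were not. Against IgG controls, a comparison that shares the responders, 7 of 10 were called, Srgn (1.04 ± 0.20) among them, where 14.3% of all genes were, and 6 without responder 16, where 14% were.

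Among 10 genes of granzyme inhibitors and the death receptor pathway, Serpinb6b alone was called higher against non-responders, where 12.5% of all genes were. It was at 22.1 and 25 CPM in responders and 2.14 to 7.43 CPM in non-responders, with a log2 fold change of 2.32 ± 0.43. Serpinb6b was also called against IgG controls, where 14.3% of all genes were called higher. Which cells these transcripts came from was not tested. Serpinb9b, of the family that holds inhibitors of granzyme B, was called against IgG controls with a log2 fold change of 1.4 ± 0.39. It was not called without responder 15 (1.29) or 16 (1.38), with folds close to that of the full fit. Fas, the receptor of Fasl, passed the adjusted p but not the fold against non-responders (0.76 ± 0.21). Serpinb9, Serpinb6a and Fadd had log2 fold changes of 0.94, 0.19 and 0.09 against non-responders, none of them called.

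Of 7 tested transcription factors of cytotoxic cells, 3 were called higher in responders than in non-responders, where 12.5% of all genes were. Stat4, which relays interleukin 12 signals, was at 21.8 and 20.8 CPM in responders and at 2.13 to 4.87 CPM in non-responders, with a log2 fold change of 2.7 ± 0.24. Tbx21, which encodes T-bet, was at 2.25 and 2.64 CPM against 0.334 to 0.749 CPM, with 2.10 ± 0.45. Eomes, a relative of T-bet, was at 6.74 and 9.31 CPM against 2.76 to 4.74 CPM, with 1.16 ± 0.31, and was called neither without responder 15 (1.304 on the log2 scale) nor without responder 16 (0.86). Prdm1, Zeb2, Id2 and Runx3 had log2 fold changes of -0.25, 0.32, 0.53 and 0.44, none of them called. Against IgG controls Stat4, Tbx21 and Eomes were called, where 14.3% of all genes were called higher. Their log2 fold changes were 2.84, 2.78 and 1.28.

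Among 8 other cytokines and ligands, Lta and Ccl5 were called against non-responders, where 12.5% of all genes were called higher. Lta, which encodes lymphotoxin alpha, was at 8.45 CPM in responder 15, at 2.7 CPM in responder 16 and at 0.182 to 0.591 CPM in non-responders, with a log2 fold change of 3.73 ± 0.57. The chemokine gene Ccl5 was at 45.9 and 82.2 CPM against 14.1 to 31.1 CPM, with 1.47 ± 0.43, and was called neither without responder 15, where the log2 fold change was larger (1.76), nor without responder 16 (0.93). Ifng, which encodes interferon gamma, was at 2.01 CPM in responder 15, inside the non-responder range of 0.729 to 3.37 CPM, and at 7.40 CPM in responder 16, an order like that of the granzymes. Against IgG controls 4 were called, where 14.3% of all genes were called higher. Their log2 fold changes were 4.62 for Lta, 2.44 for Ifng, 1.90 for Ccl5 and 1.44 for Tnfsf10, the death ligand TRAIL. In the same order, these folds were 5.160, 1.155, 1.362 and 1.498 without responder 16. They were 3.495, 3.014, 2.184 and 1.253 without responder 15. Tnf, Tnfsf10, Ccl3 and Ccl4 had log2 fold changes of 0.30, 0.96, 0.46 and 0.24 against non-responders, none of them called. Of the granzymes that are no members, Gzmg was at 13.1 and 68.3 CPM in responders, with a log2 fold change of 0.66 against non-responders, and Gzmm at 0.798 and 0.337 CPM, with 1.71, neither of them called. Gzmn was too low to be tested.

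Markers of cell types were examined by the same rule, by which 12.5% of all genes were called higher in responders than in non-responders. Both CD8 markers and all 6 T cell markers were called higher in responders than in non-responders, with log2 fold changes of 3.01 to 3.77, and remained called without responder 15 or 16. Of 5 NK cell markers, Ncr1 (1.32) and Klrb1c (1.57) were called, and none without responder 16. The summed NK markers lay at 2.67 to 6.23 CPM in IgG controls and 2.49 to 6.05 CPM in non-responders. Of 5 mast cell markers Kit (1.13) was called, and the summed level was 103 CPM in responder 15 and 36.9 CPM in responder 16, against 12.6 to 47.1 CPM in non-responders. None of 5 macrophage markers was called against non-responders, but Cd163 was at 62.6 and 12.9 CPM in responders 15 and 16. These were 31.2 and 6.40 times the non-responder median. Against IgG controls, where 14.3% of all genes were called higher, all CD8 and T cell markers were called. So were 4 NK cell markers, 1 mast cell marker and 1 macrophage marker. The part of each of these cell types in the levels of the killing genes was not tested.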

How the data were processed

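Bulk RNA-seq of 16 MC38 tumors was used, 1 library per mouse, grouped by the submitters' labels. The authors deposited expected counts per gene from RSEM 1.3.0 after STAR 2.6, on GRCm38 with Ensembl 91. Of these values 7.84% were not whole within 0.001, and all were rounded. Of the table's entries, 92 spike-in sequences (at most 185 counts per tumor) were left out, and 53274 of 53465 genes received a GENCODE M21 symbol. Total counts per tumor ranged from 26603449 to 39948866. Intervals were not computed, and the limit for 0 counts (3 counts) covers counting error only.

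The main test was edgeR's quasi-likelihood test (edgeR 4.0.16, R 4.3.3) with TMM scaling and the default expression filter, fitted to all 3 groups (18251 genes), and to all aPD-1 tumors against IgG controls in a separate fit (15775 genes). Genes were called at a Benjamini-Hochberg adjusted p below 0.05 and an absolute log2 fold change above 1. The p-values measure the spread between mice. Each standard error is the absolute log2 fold change divided by the square root of the test's F statistic. It rests on a spread estimated over all tumors of the fit, not over the compared groups alone. The study used DESeq2, which was run here as an alternative (DESeq2 1.42.0). Ratios to Cd8a are described without a test, since responders were chosen by their immune infiltrate. The planned exact permutation test of them is not reported. Other steps used scipy 1.17.1, pandas 2.3.3 and numpy 2.4.6 under Python 3.11.15. Code was tested on simulated data.

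The members and lists were chosen with earlier results of these data known. All 10 members are named, with the 3 genes nearest to each by Pearson r of log2 CPM (prior count 2). Genes of the further lists are named if called in a responder comparison, with up to 4 others of a list in its order. Cell type markers are given by list, with only some genes named. Genes outside this rule are named where a result turns on them. Alternatives were other size factors, other filters, no fold threshold, unrounded counts, the chromosome 14 granzymes summed, only the groups compared, other denominators and each tumor left out. Leaving out a responder for the further lists was added after seeing the data. Sequences are from RefSeq, GRCm38.p6.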

Additional observations from a re-analysis of the deposited data

Results flagged for a closer look

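IgG control 8 stood apart from the other 7 controls in both granzymes of chromosome 13. Gzma was at 2.6 CPM there and at 0.228 to 1.24 CPM in the others, and Gzmk was at 0.471 CPM there and at 0 to 0.109 CPM in the others. In both genes the gap to the nearest control was larger than Dixon's 95% limit. The levels of 10 members in 2 groups were examined in this way, 20 groups of values in all, and 2 were picked out. Chance flags about 1 in 20 groups. Cd8a was also highest among the controls in this tumor, at 11.5 CPM.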

How the results depend on the processing

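Most changes came with leaving out responder 16. The number of members called ranged from 0 to 4 against non-responders and from 1 to 6 against IgG controls when each tumor was left out in turn, and it was 0 and 1 without responder 16, where 2594 and 2947 of all genes were called, and 3 and 5 without responder 15, where 932 and 1240 were. The full fits called 2407 and 2730 genes. A lone responder is assumed to vary like the other groups. Without responder 16 the log2 fold change against non-responders turned to -0.25 for Gzmb, -0.92 for Gzmc, -1.06 for Gzmd, -0.96 for Gzme, -1.27 for Gzmf and -0.085 for Prf1, and against IgG controls to -0.46 for Gzmc, -0.40 for Gzmd, -0.35 for Gzme and -0.66 for Gzmf. Without responder 15 the values against non-responders were 1.43 for Gzmb, 0.62 for Gzmc, 1.12 for Gzmd, 1.38 for Gzme, 1.04 for Gzmf and 1.06 for Prf1, and against IgG controls 1.07 for Gzmc, 1.78 for Gzmd, 2.0 for Gzme and 1.65 for Gzmf. Gzmc against non-responders was -0.081 without non-responder 10. Fasl was called against non-responders without IgG control 8 (adjusted p of 0.0296 in edgeR's test), and Prf1 against IgG controls without IgG control 4 (0.0365). With a filter of at least 10 counts in at least 8 tumors, Gzmk was not tested. The other 9 members kept their direction and their side of the threshold in both responder comparisons. The difference in the log2 ratio of Gzmb to Cd8a ranged from -3.34 to -1.63.

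Against IgG controls and non-responders, 208 and 207 of the recomputed fold changes kept their direction and their side of the threshold, as did all 218 of non-responders and all 189 of all aPD-1 tumors against IgG controls. No paired analysis was possible because the tumors are numbered 1 to 16 with no number shared between groups.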
